A study of Homo sapiens with 28 samples.

Results

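The keratin genes form the subject of this account: every entry of the RNA tables whose symbol is KRT followed by a digit, with keratin-associated protein genes left out. The rule gave 61 members of 23533 genes, of which 55 were genes and 6 were pseudogenes. Of the members, 28 lay on chromosome 12, 32 on chromosome 17 and 1, the pseudogene KRT8P41, on chromosome 11. In 24 keratin genes and 2 pseudogenes the level reached 1 RPKM (reads scaled by gene length and by the size of the library) in at least 1 group.

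Keratins are the intermediate filament proteins of epithelial cells, and each filament is built from pairs of an acidic type I and a basic type II keratin. The pair expressed marks the state of the cell. In stratified epithelium KRT5 and KRT14 mark the basal layer, KRT4 and KRT13 the suprabasal layers of moist epithelium such as the esophagus, KRT1 and KRT10 the suprabasal layers of cornifying epidermis, and KRT6 and KRT16 activated or wounded epithelium.

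The cells were EPC2, an immortalised human esophageal epithelial line, plated at high confluency a day ahead and treated for 6 h. Groups were untreated cells, cells given IL-13 at 100 ng/ml, cells given vitamin D at 100 nM, and cells given both at these doses. The cytokine IL-13 signals by way of STAT6, and the receptor of vitamin D, VDR, is itself a transcription factor. RNA was sequenced from 12 samples, 3 per group, and ChIP-seq covered 16 libraries, 1 per condition, for STAT6 without and with IL-13, VDR without and with vitamin D, and the histone marks H3K4me3, H3K9ac and H3K27ac in all 4 groups. All data come from 1 cell line, the labels leave out the form of vitamin D, and nothing in them tells if the 3 RNA samples per group came from separate cultures. The p-values then measure the spread between these samples only, which may be technical.

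The RNA files held 1 RPKM value per group, the authors' pooled value, so no spread and no read depth per sample could be given. All 6 markers of stratified squamous epithelium (TP63, KRT5, KRT14, DSG3, CDH1 and SFN) were at 1 RPKM or more in untreated cells. Of the columnar markers, 7 of 7 in the tables stayed under 0.1 RPKM in every group, with CDX2 at 0. Under 0.1 RPKM in every group were also 6 of 8 fibroblast, 4 of 7 leukocyte and 4 of 6 endothelial markers, and none of these was at 0 throughout. Summed leukocyte markers went from 53.4 RPKM untreated and 51.8 with IL-13 to 193 with vitamin D and 272 with both, and summed endothelial markers from 0.573 untreated to 2.14, 1.31 and 3.92. The leukocyte list includes CD14, a known target of VDR. Only 3 of its 7 genes were tested with vitamin D, with log2 changes from 0.31 to 5.57 and a median of 0.73 in the authors' deposited table. Fibroblast markers summed to 15.5 untreated, 10.2 under IL-13, 9.86 under vitamin D and 6.11 under both. Only 1 of the 8 was at 1 RPKM or more untreated, so the untreated sum is mostly the level of 1 gene. The part of these markers in the keratin results was not tested. Peak regions covered 85.1 Mb in the untreated H3K27ac library and 49.3 to 55 Mb in the other 3, which touches every comparison of that mark.

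Keratin RNA made up 15.7% of the summed RPKM of all genes in untreated cells, 15.9% under IL-13, 14.9% under vitamin D and 14.7% under both. The summed level of type II members divided by that of type I members was 0.941 in untreated cells, 0.957 under IL-13, 0.948 under vitamin D and 0.99 under both. The same 6 genes, KRT6A, KRT17, KRT5, KRT14, KRT16 and KRT6B, led in every group and held between 93.8% and 96.4% of keratin RPKM. Below them the untreated levels ran from 1581 RPKM for KRT19 down to genes listed at 0 in all groups. RPKM is a level per length, but the length the authors used for each gene is not stated in the tables, so levels and ratios between genes hold only as far as their lengths do. KRT6A, KRT6B and KRT6C are near-identical, as are KRT81 and KRT86 and also KRT33A and KRT33B, and KRT16 has close pseudogene copies. How reads shared by such copies were counted is not stated in the sources used here, so the separate values of these genes are uncertain.

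**Figure D1:**
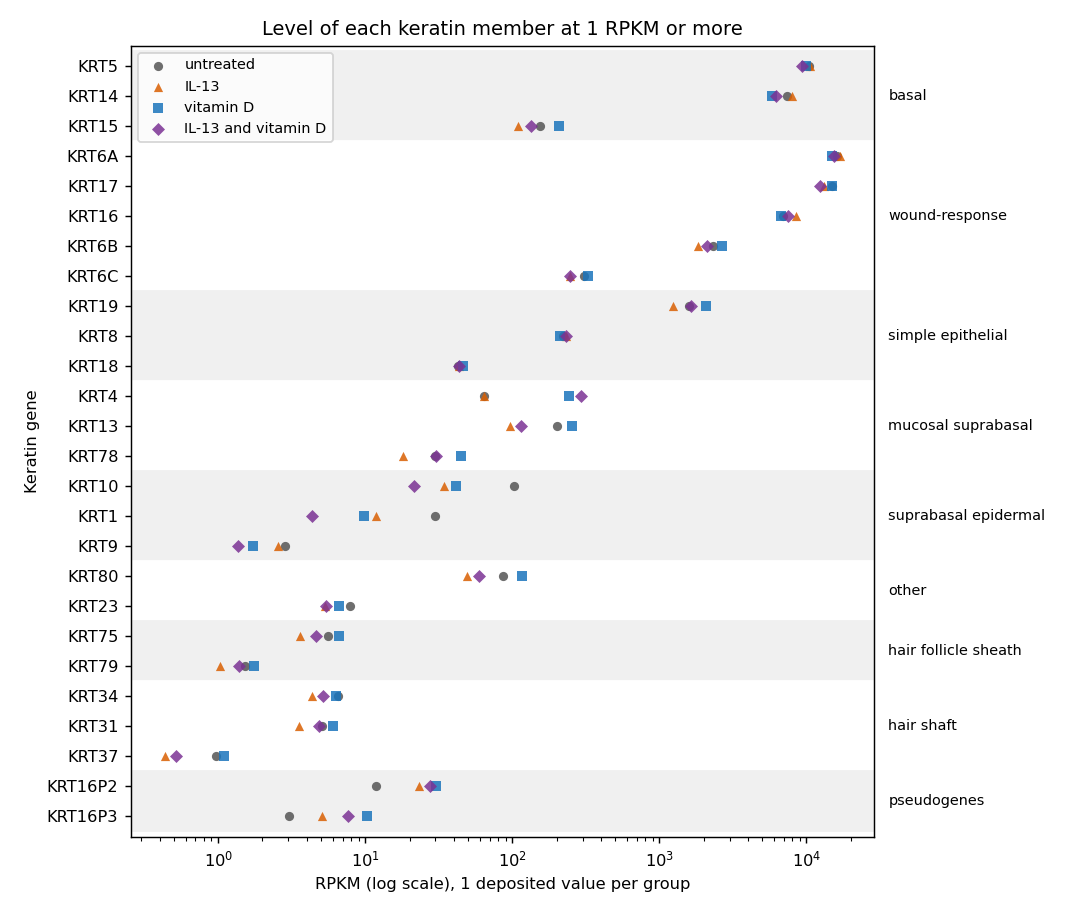
Level of the 26 keratin members at 1 RPKM or more, grouped by class, as RPKM on a log axis; each point is the authors' value for 1 group and there is no error bar because the files give none. The basal and wound-response genes at the top hardly separate by group, apart from KRT15, which lies between 109 and 206 RPKM. The KRT4, KRT10 and KRT1 points lie far apart, KRT4 between 63.8 and 293 RPKM and KRT1 between 4.35 and 29.9 RPKM.

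The sequences before 3 starts are shown because these genes stand for the patterns described below: KRT4 rose most, KRT10 fell in all treatments, and KRT5 stayed near its untreated level with every histone mark at its start. RefSeq's table of starts (GRCh38.p14) held 34 of the 61 members. Each line gives the 250 bases before the start, 5′ to 3′ on the gene's strand, which is the minus strand for all 3. Capitals mark matches to TATAA, the core of the TATA box, or to a VDR half-site, on either strand. The half-sites searched were AGGTCA and AGTTCA, with GGGTCA as the third form and GGTTCA as the last.
KRT4, chr12:52814117-52814366: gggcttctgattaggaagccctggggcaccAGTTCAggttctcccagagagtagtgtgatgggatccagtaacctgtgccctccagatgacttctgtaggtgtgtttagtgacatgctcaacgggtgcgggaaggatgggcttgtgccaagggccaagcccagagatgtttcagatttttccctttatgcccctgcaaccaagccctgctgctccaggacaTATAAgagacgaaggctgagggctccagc
KRT10, chr17:40822615-40822864: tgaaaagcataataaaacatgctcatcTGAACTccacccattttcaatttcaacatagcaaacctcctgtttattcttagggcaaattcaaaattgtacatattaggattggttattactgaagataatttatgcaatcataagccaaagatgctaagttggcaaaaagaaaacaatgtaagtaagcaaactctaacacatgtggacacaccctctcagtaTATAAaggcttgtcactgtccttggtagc
KRT5, chr12:52520395-52520644: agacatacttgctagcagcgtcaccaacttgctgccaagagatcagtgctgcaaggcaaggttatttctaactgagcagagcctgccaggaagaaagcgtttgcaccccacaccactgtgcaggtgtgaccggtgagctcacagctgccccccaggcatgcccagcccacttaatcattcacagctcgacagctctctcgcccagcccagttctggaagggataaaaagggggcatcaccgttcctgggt

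In KRT4 and in KRT10 the TATAA match spanned bases 29 to 25 before the start. The VDR half-site of KRT4 lay 220 to 215 bases before its start and that of KRT10, on the opposite strand, 223 to 218 bases before. TATAA occurred on either strand in 25 of the 34 keratin genes, against 18.9% of 35116 windows of the same length in the RefSeq table. A VDR half-site occurred in 13 of 34, against 33.8% of windows. Direct repeats of 2 such half-sites with a spacing of 3 bases (DR3), which contain the half-sites just counted, occurred in 0 of 34 and in 0.0655% of windows. The STAT6 motif TTCNNNNGAA occurred in KRT31, KRT33A and KRT35, against 5.38% of windows, and the AP-1 motif TGANTCA in 0 of 34, against 6.57%. A match is a description of letters and not a binding site.

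The first comparison asks what IL-13 alone did to keratin RNA. Most keratins that changed were lower. Of 47 members tested in the authors' deposited table, 3 were higher and 20 lower at an adjusted p of 0.05 or less, where 12.3% of all 15172 genes tested were higher and 14% lower. The median log2 change of the tested members was -0.32 in the authors' deposited table, against 0.0027 over all genes tested. Among members at 1 RPKM or more, 3 of 26 were higher and 16 lower, or 61.5% lower, against 16.8% of all genes at that level. By class, the lower members were KRT1, KRT10 and KRT77 of the epidermal suprabasal class, KRT13 and KRT78 of the mucosal class, KRT15 of the basal class, KRT17, KRT6B and KRT6C of the wound-response class, KRT19, KRT23 and KRT80, 2 hair follicle sheath keratins (KRT75 and KRT79) and 6 hair shaft keratins. The 3 that rose were KRT16 and the pseudogenes KRT16P2 and KRT16P3. In bulk RNA, fewer cells of a type and less RNA per cell cannot be told apart, here and in all comparisons that follow.

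The second comparison asks what vitamin D alone did, and most keratins that changed were higher. Of 47 tested members 15 were higher and 5 lower in the authors' deposited table, where 17.5% of 15177 genes tested were higher and 15.1% lower. The median was 0.084 in the authors' deposited table, against -0.0031 over all genes tested. At 1 RPKM or more, 13 of 26 members were higher, or 50%, against 21.3% of all genes at that level. The 5 that fell were KRT14, KRT10, KRT1, KRT9 and KRT23, so that every member of the epidermal suprabasal class at 1 RPKM or more fell. The 15 that rose were KRT4, KRT13, KRT78 and KRT3 of the mucosal class, KRT15, KRT6B, KRT6C, KRT18, KRT19, KRT80, KRT75, KRT31, KRT40 and the pseudogenes KRT16P2 and KRT16P3.

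With both treatments, 5 of 50 tested members were higher and 18 lower than untreated in the authors' deposited table, where 16% of 15971 genes tested were higher and 15.7% lower. The higher members were KRT4, KRT3, KRT40, KRT16P2 and KRT16P3. The median was -0.19 in the authors' deposited table, against -0.00042 over all genes tested. Adding IL-13 to vitamin D gave 2 higher (KRT4 and KRT40) and 25 lower of 47 in the authors' deposited table for that comparison, where 16.4% of 14859 genes tested were higher and 16.9% lower. Its median was -0.30, against 0.00055 over all genes tested, in the authors' deposited table. These 2 comparisons share the libraries given both treatments, and the 3 comparisons against untreated cells share the untreated libraries, so the counts are not independent of each other.

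No deposited table compares both treatments with IL-13 alone, so this was derived gene by gene from the tables, with a z test over 14734 genes and Benjamini-Hochberg adjustment. Of 45 members that could be tested, 13 were higher and 6 lower when vitamin D was added to IL-13, where 12.3% of genes tested were higher and 11.9% lower. The median was 0.043, against -0.013 over all genes tested. The 6 that fell were KRT1, KRT10, KRT9, KRT14, KRT5 and KRT16. With standard errors multiplied by 1.5, 7 members were higher and 4 lower.

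**Figure D2:**
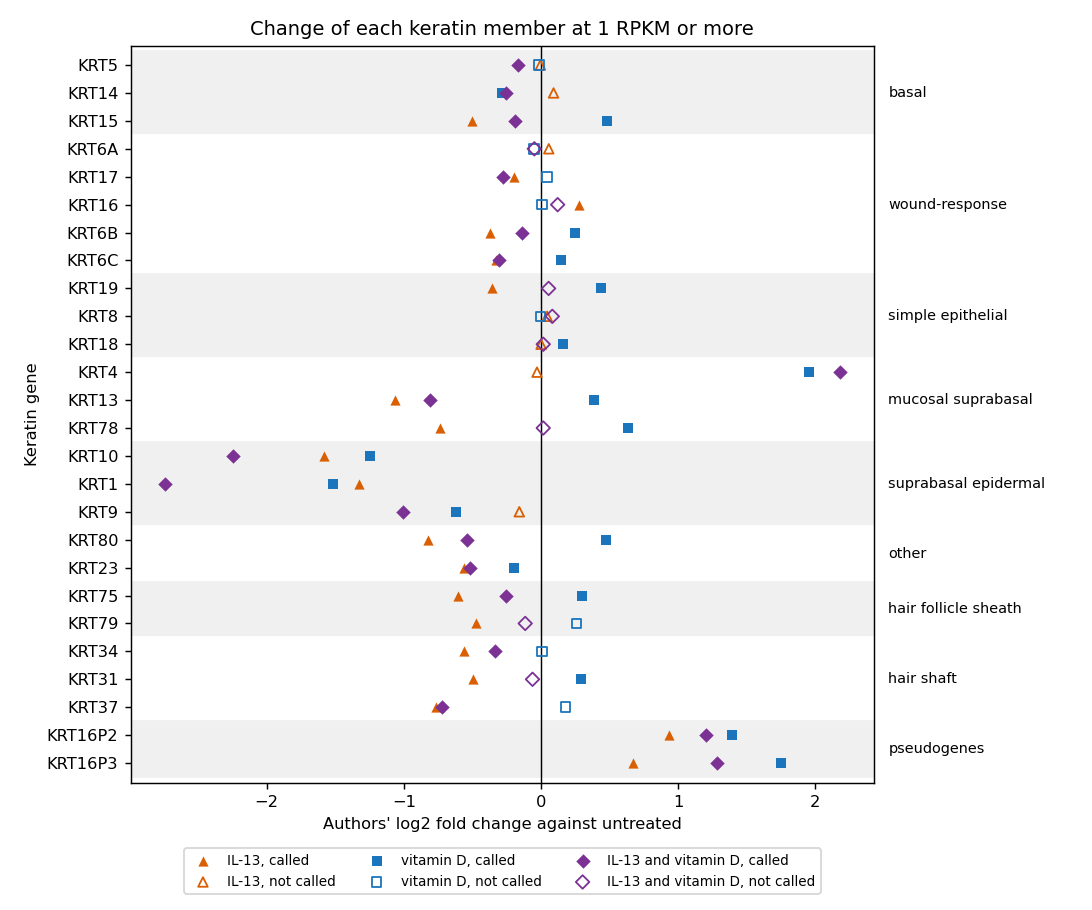
The authors' log2 fold change against untreated cells for the 26 members at 1 RPKM or more, with filled marks for those at an adjusted p of 0.05 or less and open marks for the rest; the groups are IL-13 (triangles), vitamin D (squares) and both (diamonds). Triangles lie left of 0 for most classes, filled squares lie right of 0 except in the epidermal suprabasal class and for KRT14 and KRT23, and the diamonds of KRT1 (-2.74) and KRT4 (2.18) mark the extremes.

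Among the basal keratins KRT5 and KRT14 changed little, and KRT15 changed in every comparison with untreated cells. KRT5, the type II basal keratin, stood at 10444 RPKM untreated, 10539 under IL-13, 9935 under vitamin D and 9265 under both. Its log2 change with both was -0.17 (adjusted p = 0.00515) in the authors' deposited table, while IL-13 (adjusted p = 0.958) and vitamin D (adjusted p = 0.799) alone did not pass. Its partner KRT14 stood at 7430, 8020, 5850 and 6196 RPKM in the same order of groups. KRT14 fell by 0.29 with vitamin D (adjusted p = 6.8e-13) and by 0.25 with both (adjusted p = 5.38e-05) in the authors' deposited table, and its level was thus low in both groups given vitamin D. KRT15, a type I basal keratin linked to progenitor cells, stood at 153 RPKM untreated, 109 under IL-13, 206 under vitamin D and 134 under both. In the authors' deposited table KRT15 changed by -0.50 under IL-13 (adjusted p = 5.34e-35), 0.48 under vitamin D (adjusted p = 2.44e-44) and -0.19 under both (adjusted p = 0.00146), so it was lowest with IL-13 and highest with vitamin D. The ratio of KRT5 to KRT14 RPKM was 1.41 in untreated cells, 1.31 under IL-13, 1.7 under vitamin D and 1.5 under both.

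The keratins of activated epithelium held the highest level of all, and KRT6A, the type II keratin of wounded and appendage epithelium, did not pass in any table. Its levels were 16009 RPKM untreated, 16863 under IL-13, 14855 under vitamin D and 15412 under both. The authors' deposited tables list an adjusted p of 0.332 under IL-13, 0.278 under vitamin D, 0.526 under both and 0.864 for IL-13 added to vitamin D. KRT6B stood at 2327, 1817, 2654 and 2099 RPKM, and KRT6C at 306, 246, 326 and 247 RPKM. KRT6B fell by 0.37 with IL-13 (adjusted p = 3.06e-17) and rose by 0.25 with vitamin D (adjusted p = 1.1e-13) in the authors' deposited tables. KRT6C did likewise, at -0.33 (adjusted p = 4.19e-11) and 0.15 (adjusted p = 0.00114) in the authors' deposited tables. KRT16, their type I partner, stood at 6913, 8503, 6675 and 7496 RPKM and was the one keratin gene, pseudogenes aside, that rose with IL-13, by 0.28 (adjusted p = 2.19e-08), per the authors' deposited table. KRT17, a type I keratin of activated and appendage cells, stood at 14930, 13128, 14799 and 12271 RPKM. It fell by 0.20 with IL-13 (adjusted p = 0.000157) and by 0.27 with both (adjusted p = 3.14e-05) in the authors' deposited tables, and it was lower in both groups given IL-13.

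Mucosal suprabasal keratins divided between the treatments. KRT4, the type II keratin of esophageal suprabasal cells, stood at 64.3 RPKM untreated, 63.8 under IL-13, 242 under vitamin D and 293 under both. It was high in both groups given vitamin D and near the untreated level with IL-13 alone. Its log2 change was 1.96 with vitamin D and 2.18 with both, each with an adjusted p listed as 0, and -0.03 with IL-13 (adjusted p = 0.691), in the authors' deposited tables. IL-13 added to vitamin D raised KRT4 further by 0.24 (adjusted p = 3e-07), per the authors' deposited table. KRT13, the type I partner of KRT4, stood at 201 RPKM untreated, 96.7 under IL-13, 254 under vitamin D and 114 under both, and was low in both groups given IL-13. KRT13 fell by 1.06 with IL-13 (adjusted p = 6.7e-127), rose by 0.39 with vitamin D (adjusted p = 3.15e-25) and fell by 0.81 with both (adjusted p = 5.09e-50) in the authors' deposited tables. The ratio of KRT4 to KRT13 RPKM was 0.319 in untreated cells, 0.66 under IL-13, 0.952 under vitamin D and 2.58 under both. KRT78, a type II keratin, stood at 29.8, 18, 44.7 and 30 RPKM, with changes of -0.74 under IL-13 (adjusted p = 4e-45), 0.64 under vitamin D (adjusted p = 1.83e-44) and 0.02 under both (adjusted p = 0.893) in the authors' deposited tables. The 4 other mucosal members stayed under 1 RPKM. One of them, KRT3, a keratin of corneal epithelium, rose from 0.397 RPKM untreated to 0.629 with vitamin D (log2 change 0.51, adjusted p = 0.0354) and 0.69 with both (0.65, adjusted p = 0.00956) in the authors' deposited tables.

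KRT10 and KRT1 of the epidermal suprabasal class fell under every treatment, and their levels were lowest with both. KRT10, the type I keratin of cornifying layers, stood at 103 RPKM untreated, 34.4 under IL-13, 41.4 under vitamin D and 21.3 under both. Its changes in the authors' deposited tables were -1.58 under IL-13 (adjusted p = 3.73e-298), -1.25 under vitamin D (adjusted p = 2e-294) and -2.25 under both (adjusted p listed as 0). KRT1, its type II partner, stood at 29.9, 11.9, 9.87 and 4.35 RPKM, with changes of -1.33 (adjusted p = 1.27e-171), -1.52 (adjusted p = 1.24e-221) and -2.74 (adjusted p listed as 0) in the authors' deposited tables. KRT9, a type I keratin known from palm and sole skin, stood at 2.85, 2.56, 1.73 and 1.36 RPKM. KRT9 changed by -0.62 with vitamin D (adjusted p = 1.51e-07) and -1.01 with both (adjusted p = 3.68e-16) in the authors' deposited tables, while IL-13 alone gave -0.16 (adjusted p = 0.309). KRT2 and KRT77 stayed under 1 RPKM, the first lower with both (-0.53, adjusted p = 0.025) and the second with IL-13 (-0.58, adjusted p = 0.0145) in the authors' deposited tables. The 5 genes of this class summed to 137 RPKM untreated, 49.4 under IL-13, 53.7 under vitamin D and 27.6 under both, and the 7 mucosal genes to 297, 179, 541 and 438 RPKM.

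Of the simple epithelial keratins, KRT19, a type I keratin also found in basal mucosal cells, stood at 1581 RPKM untreated, 1242 under IL-13, 2059 under vitamin D and 1637 under both. KRT19 fell by 0.36 with IL-13 (adjusted p = 1.15e-15) and rose by 0.44 with vitamin D (adjusted p = 7.84e-34), and with both it did not pass (0.06, adjusted p = 0.515), in the authors' deposited tables. KRT8 stood at 221, 231, 211 and 233 RPKM and passed in none of the authors' deposited tables (adjusted p = 0.507 with IL-13, 0.969 with vitamin D, 0.269 with both and 0.127 for IL-13 added to vitamin D). Its partner KRT18 stood at 43, 43.6, 46.4 and 43.3 RPKM, with a change of 0.16 with vitamin D (adjusted p = 0.00281) in the authors' deposited table. KRT8 and KRT18 overlap head to head in the tables, and since the sources used here do not give the use of strand in counting, reads of the overlap cannot be assigned. KRT7 and KRT20 stayed under 1 RPKM, and KRT7 was lower when IL-13 was added to vitamin D (-0.52, adjusted p = 0.0407) in the authors' deposited table.

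Among the remaining members, KRT80, a type II keratin of cell margins, stood at 86.9 RPKM untreated, 49.3 under IL-13, 116 under vitamin D and 59.3 under both. KRT80 changed by -0.82 under IL-13 (adjusted p = 3.84e-98), 0.48 under vitamin D (adjusted p = 3.65e-52) and -0.54 under both (adjusted p = 8.66e-38) in the authors' deposited tables. KRT23 stood at 7.87, 5.31, 6.59 and 5.43 RPKM and was lower in all 3 comparisons with untreated cells. KRT75, a companion layer keratin of the hair follicle, stood at 5.55, 3.61, 6.58 and 4.62 RPKM, and KRT79 at 1.51, 1.04, 1.76 and 1.38 RPKM. Both fell with IL-13, by 0.61 (adjusted p = 3.62e-11) and 0.48 (adjusted p = 0.00367) in the authors' deposited table. The hair shaft keratins KRT34 (6.55, 4.36, 6.33 and 5.13 RPKM), KRT31 (5.08, 3.53, 6.03 and 4.84 RPKM) and KRT37 (0.966, 0.433, 1.09 and 0.519 RPKM) were each lowest with IL-13 alone. Changes with IL-13 in the authors' deposited table were -0.56 for KRT34 (adjusted p = 5.52e-07), -0.50 for KRT31 (adjusted p = 7.74e-05) and -0.77 for KRT37 (adjusted p = 0.000261). Of the 14 hair shaft keratins under 1 RPKM, KRT81, KRT83 and KRT86 were lower with IL-13, and KRT40 rose from 0.029 RPKM untreated to 0.147 with vitamin D (0.67, adjusted p = 0.00464) and 0.356 with both (1.88, adjusted p = 9.47e-11) in the authors' deposited tables. These deposited changes of KRT40, and that of KRT37 with IL-13, were smaller in size than the ratios of the RPKM values. Effect sizes of genes near or under 1 RPKM thus depend on which of these measures is read.

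The pseudogenes KRT16P2 and KRT16P3, copies of KRT16 elsewhere on chromosome 17, rose far more than KRT16. KRT16P2 stood at 11.8 RPKM untreated, 23.2 under IL-13, 30.1 under vitamin D and 27.4 under both, and KRT16P3 at 3.05, 5.1, 10.3 and 7.62 RPKM. All treated groups lay above untreated. With vitamin D the changes were 1.39 (adjusted p = 8.04e-146) and 1.75 (adjusted p = 4.28e-113), and with IL-13 0.93 (adjusted p = 1.38e-52) and 0.67 (adjusted p = 9.05e-11), in the authors' deposited tables. KRT16 itself changed by 0.01 with vitamin D (adjusted p = 0.932) in the authors' deposited table. The other pseudogenes stayed under 1 RPKM, and KRT42P was lower with both (-0.52, adjusted p = 0.0255) in the authors' deposited table.

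Whether IL-13 acted differently with vitamin D present was tested as the difference between 2 deposited effects whose tables share no library, by a z test over 14734 genes with Benjamini-Hochberg adjustment. Of 45 members, 2 had a higher and 2 a lower IL-13 effect with vitamin D, where 1.41% of genes tested were higher and 1.01% lower. The difference was 0.60 for KRT10 (standard error 0.064, adjusted p = 1.83e-17): IL-13 changed it by -1.58 alone and by -0.98 with vitamin D in the authors' deposited tables. For KRT1 the 2 effects were -1.33 and -1.19 in the authors' deposited tables, and their difference of 0.14 did not pass (adjusted p = 0.621). KRT4 had a difference of 0.27 as computed from the authors' deposited tables (standard error 0.06, adjusted p = 0.000835), which no longer passed with standard errors multiplied by 1.5 (adjusted p = 0.314). The difference was -1.10 for KRT16P2 (adjusted p = 1.49e-34) and -1.12 for KRT16P3 (adjusted p = 3.98e-15), where IL-13 alone raised both RNAs and IL-13 added to vitamin D gave -0.17 and -0.45 in the authors' deposited tables. For the other 41 members the difference did not pass, and KRT80 came nearest at -0.17 (adjusted p = 0.077, from the authors' deposited tables).

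**Figure D3:**
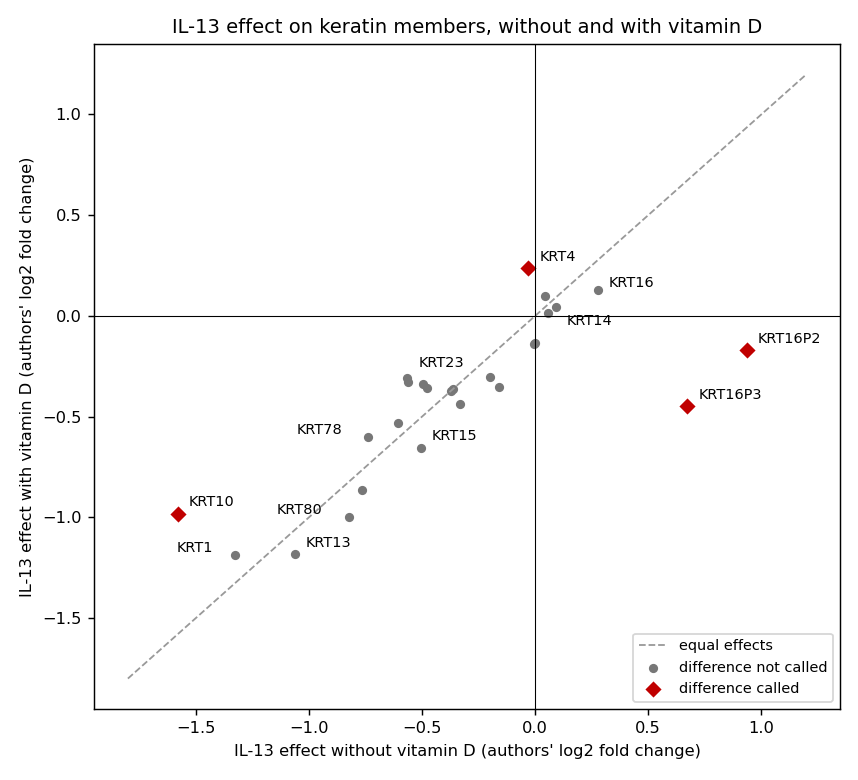
The authors' log2 fold change for IL-13 against untreated (horizontal axis) and for IL-13 added to vitamin D (vertical axis) for the 26 members at 1 RPKM or more; the dashed line marks equal effects and red diamonds mark members whose difference had an adjusted p of 0.05 or less. Most members lie near the dashed line, KRT10 and KRT4 lie above it, and KRT16P2 and KRT16P3 lie below it on the lower right, where the effects differ in sign.

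Genes that work with keratins were read beside them from short lists. Of 22 genes for linkers, bundlers and cross-linkers of keratin filaments, 20 were tested with IL-13, where 4 were higher and 13 lower, and 20 with vitamin D, where 5 were higher and 9 lower, in the authors' deposited tables. Over all genes tested these shares were 12.3% higher and 14% lower with IL-13, and 17.5% and 15.1% with vitamin D. With both, 2 of 21 were higher and 15 lower in the authors' deposited table, against 16% and 15.7% of all genes tested. RPTN, which encodes the filament-associated matrix protein repetin, was the one that rose over 2-fold, at 5.77 RPKM untreated, 27.4 under IL-13, 12.9 under vitamin D and 84 under both. The transglutaminase gene TGM1 stood at 262, 132, 192 and 84.5 RPKM, with a change of -1.61 with both (adjusted p = 7.01e-218) in the authors' deposited table. TGM5 stood at 3.54, 1.34, 3.37 and 0.98 RPKM, and TGM3 at 16.4, 16.5, 8.58 and 8.06 RPKM, so the first was low in the groups given IL-13 and the second in the groups given vitamin D. FLG2, for a filaggrin-like protein, stayed under 1 RPKM and fell by 1.43 with vitamin D (adjusted p = 2.11e-14) in the authors' deposited table.

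Of 15 other intermediate filament genes, 10 were tested with IL-13 (1 higher, 3 lower) and 10 with vitamin D (0 higher, 3 lower) in the authors' deposited tables, where 12.3% and 14% of all genes tested were higher and lower with IL-13, and 17.5% and 15.1% with vitamin D. The nestin gene NES rose with IL-13, at 1.64 RPKM untreated and 3.56 with IL-13 (1.05, adjusted p = 4.81e-41), and the neurofilament gene NEFL fell with vitamin D, at 6.04 and 2.27 RPKM (-1.32, adjusted p = 2.17e-66), in the authors' deposited tables. Of 23 transcription factors known to regulate keratin genes, 4 were higher and 12 lower with IL-13, and 10 were higher and 9 lower with vitamin D, in the authors' deposited tables. Of all genes at 1 RPKM or more, 15.1% were higher and 16.8% lower with IL-13, and 21.3% and 17.8% with vitamin D. SOX2, a progenitor factor, stood at 10.5 RPKM untreated, 15.6 under IL-13, 2.22 under vitamin D and 7.15 under both, and FOS, a subunit of AP-1, at 1.24, 0.913, 13.8 and 7.04 RPKM. OVOL2, a zinc finger repressor, stood at 9.18, 5.2, 5.51 and 3 RPKM, lowest with both. A link between the levels of these factors and keratin RNA was not tested.

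Chromatin at the keratin starts was read from peak lists, in which summits with the same borders were merged into 1 region. With 1 library per condition there is no test, and presence or absence of a region also depends on the depth of a library, which the sources used here do not give. Nor do they tell how ChIP reads shared by close copies were placed. Weak or absent regions at KRT6A, KRT6B, KRT6C, KRT16 and its pseudogenes are thus uncertain, here and below. H3K4me3 and the acetyl marks usually lie at active starts: among 11249 genes at 1 RPKM or more in untreated cells, 90.2% had an H3K4me3 region within 1 kb of the start, 92.2% an H3K27ac region and 87.5% an H3K9ac region. Of the 25 keratin members at that level, 12 had H3K4me3, 18 had H3K27ac and 10 had H3K9ac. The gap was smaller among highly expressed genes. Of 469 genes at 100 RPKM or more, 93% had H3K4me3, 96.2% H3K27ac and 90.6% H3K9ac. The 12 keratins among them had H3K4me3 in 10, with KRT10 and KRT13 lacking it, H3K27ac in 11, with KRT10 lacking it, and H3K9ac in 8. H3K9ac was lacking at KRT10 and KRT13 and at the close copies KRT6B and KRT6C. KRT8, which is among the 12 keratins, starts within 1 kb of KRT18 as annotated here, so the marks at their starts cannot be told apart.

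The 7 keratin starts above 1000 RPKM differed in the strength of their marks. At KRT5 the untreated H3K27ac region had an enrichment of 39.2-fold over the peak caller's background, the authors' value, at percentile 99.951 of its list. For KRT6A it was 33-fold and for KRT14 30-fold. At KRT16 it was 12.1-fold, with H3K4me3 at 11-fold against a median of 28.8-fold in that list, and H3K9ac at 5.76-fold, the median of its list. At KRT6B H3K27ac was 7.93-fold, H3K4me3 was 3.43-fold, at percentile 1.5 of its list, and no H3K9ac region lay there in any group. KRT6B and KRT16 have close copies, so their marks are among those left uncertain by shared reads. KRT4, KRT10, KRT1, KRT9, KRT23 and KRT37 had no region of any of the 3 marks within 1 kb of the start in any of the 4 groups. KRT1 had no region of any kind over its body or the 5 kb before it in all 16 libraries, at 29.9 RPKM untreated. The other 18 members with no such region stayed under 1 RPKM. Regions that overlap KRT10 lay over the start of TMEM99, a gene on the opposite strand, to which the authors' lists assign them. KRT4 had no histone region before treatment or with IL-13, and with vitamin D it had 1 H3K27ac region of 145 bases, described below, but none with both treatments, where its RNA was highest.

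**Figure D4:**
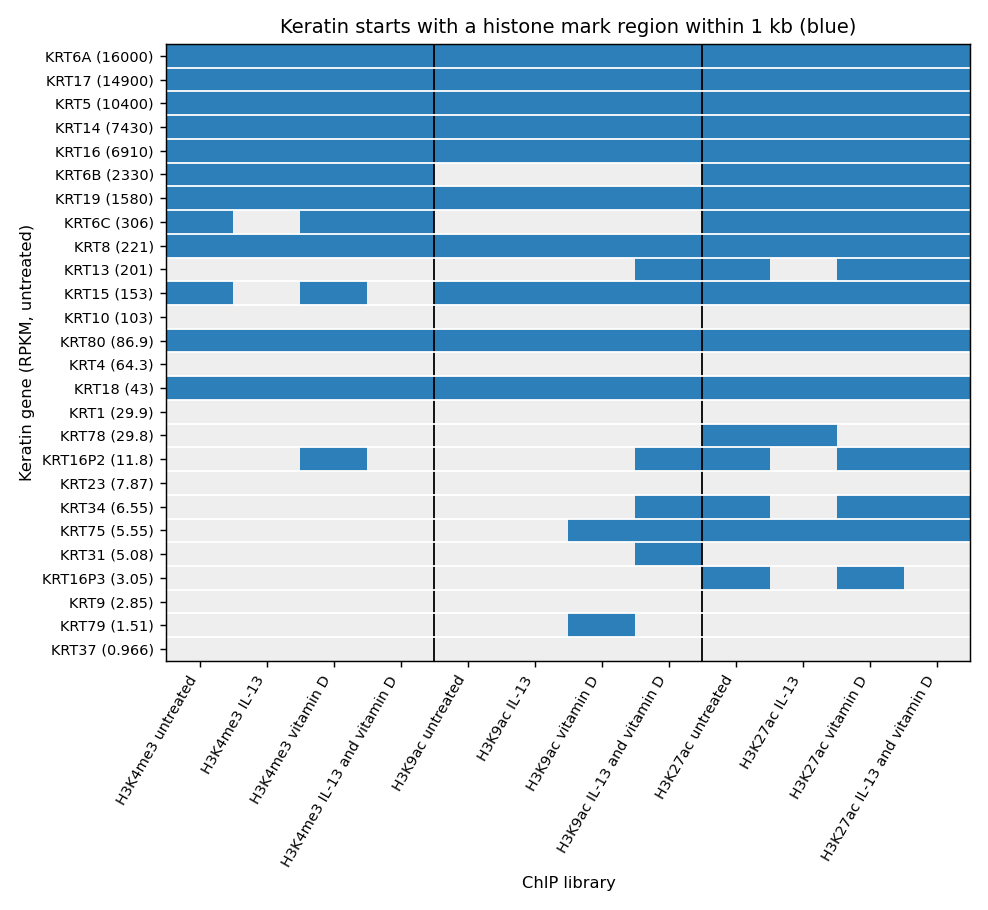
Presence (blue) or absence (grey) of a histone mark region within 1 kb of the start of the 26 keratin members at 1 RPKM or more, from highest to lowest untreated RPKM (in brackets), in 12 libraries, 1 per column. The rows of KRT10, KRT4, KRT1, KRT23, KRT9 and KRT37 are empty, while KRT6A, KRT17, KRT5, KRT14, KRT16, KRT19, KRT8, KRT80 and KRT18 are filled in every column. The start windows of KRT8 and KRT18 overlap, so their rows are not separate evidence.

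Marks at some keratin genes were compared between groups, each on single libraries. The H3K4me3 regions nearest to the KRT15 start were weak, at most 5.52-fold, and their presence within 1 kb turned on the edge of that window. Untreated cells had one from base -1449 to base -931 relative to the start (4.11-fold), IL-13 one from base -1296 to base -1154 (3.63-fold), and vitamin D one from base -1287 to base -1138 (4.91-fold) and another from base 333 to base 1277 beyond the start (5.52-fold). With both treatments the KRT15 window held no H3K4me3 region. At KRT13, the level of RNA and the coverage by H3K27ac were both lowest with IL-13 alone. Over the whole genome, too, the IL-13 library covered the fewest bases of the 4 for this mark, at 49.3 Mb. H3K27ac covered 3571 bases of the KRT13 window (its body and the 5 kb before) untreated, 910 under IL-13, 3027 under vitamin D and 2860 under both, and H3K4me3 covered 0 in all 4. KRT80 had H3K27ac over 11046 bases of its window untreated, 3517 under IL-13, 7004 under vitamin D and 4529 under both. This is the order of the coverage of these libraries at its ends, widest untreated and narrowest with IL-13.

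STAT6 regions at keratin genes were seen only with IL-13, in 1 library per condition. With IL-13, 5 of 4802 regions, or 0.104%, overlapped a keratin gene or the 5 kb before its start, and without IL-13 none of 1126 did. At that share a list as short as the untreated one could hold none, so its lack of keratin regions is not a difference at keratins. None of the 5 overlapped an untreated STAT6 region, which was also so for 81% of all STAT6 regions with IL-13. Before KRT6A there were 2, at chromosome 12, 52887512 to 52888924 (hg19 here and for all regions), 6.92-fold, with its summit 1407 bases before the start, and at 52890126 to 52890740, 5.93-fold, 3215 bases before the start. Before KRT16 a region at chromosome 17, 39769024 to 39769521, was 4.70-fold, with its summit 336 bases before the start. Before KRT15 a region at 39675713 to 39676070 was 4.20-fold, with its summit 770 bases before the start. The last, at chromosome 12, 53318750 to 53319325, was 7.66-fold and lay within the span that the tables give for KRT8. It lay over 20 kb from the starts of KRT8 and KRT18, which are within 1 kb of each other as annotated here. The lists class it as a promoter region of KRT8, so the KRT8 start taken here may not be theirs. Of the genes with a STAT6 region, KRT16 rose, KRT15 fell, and KRT6A and KRT8 did not pass with IL-13. The strongest STAT6 region that the lists assign to a keratin from farther away was 8.65-fold, at chromosome 17, 39110039 to 39110934, assigned to KRT23.

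All 5 regions lay in H3K27ac and in H3K9ac regions of the IL-13 libraries, against 52.1% and 37.2% of all STAT6 regions with IL-13. VDR regions with vitamin D overlapped 3 of the 5, at KRT6A, KRT15 and KRT16, against 6.5% of all STAT6 regions with IL-13. The KRT15 pair met only at the edges, and 2 of the 5 remained when more of the shorter region had to be covered. By the authors' classes 4 of the 5 were promoter regions, against 4.87% of all STAT6 regions with IL-13, of which 52.4% were intergenic. Since the windows were placed around genes, the shares over all regions are not a like background. KRT10, KRT1, KRT13 and KRT80, whose changes with IL-13 were the most negative of the keratins called, had no STAT6 region in this window.

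VDR regions over keratin genes numbered 25 of 1828 without vitamin D and 23 of 9224 with it. Of the 23 with vitamin D, 18 overlapped no untreated VDR region, as did 83% of all VDR regions with vitamin D. Strongest was the region before KRT6A at chromosome 12, 52889997 to 52890921, at 22.5-fold with its summit 3306 bases before the start, where an untreated VDR region of 6.63-fold and the second STAT6 region also lay. At the KRT15 start a region at chromosome 17, 39674894 to 39675816, was 20.6-fold with its summit 27 bases before the start. At the KRT14 start a region at 39743041 to 39743800 was 16-fold with its summit 216 bases before. KRT17 had a region at 39780849 to 39781309 (9.11-fold, summit 316 bases before the start) and KRT16 one at 39769085 to 39769659 (6.12-fold, summit 160 bases before the start). Of these 5 genes, KRT15 rose with vitamin D, KRT14 fell, and KRT6A, KRT16 and KRT17 did not pass.

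KRT4, which rose most, had a VDR region with vitamin D at chromosome 12, 53212248 to 53212575, at 7.20-fold, with its summit 4526 bases before the start and none without vitamin D. The 145-base H3K27ac region seen with vitamin D, at 4.62-fold, lay inside it, from base -4527 to base -4383 relative to the start. Both lie outside the 250 bases printed above. KRT10 and KRT1, which fell, had no VDR region in this window. Further regions with vitamin D lay before KRT5, KRT74, KRT75 and the pseudogene KRT42P, at the start of KRT79, in introns of KRT7, KRT72, KRT8, KRT17, KRT18P55 and KRT19, and in exons of KRT5, KRT14 and KRT19. Apart from KRT42P at 13.7-fold these ranged from 3.52-fold to 10.4-fold. The strongest VDR region farther out, 29.5-fold at chromosome 17, 20397551 to 20397905, is assigned to KRT16P3, with its summit 10078 bases beyond the start, on the downstream side. An untreated VDR region of 6.08-fold also lay there. A region at chromosome 17, 16725889 to 16726569, assigned to KRT16P2, was 21.5-fold at a like distance, 9914 bases, chosen here after its value was seen because both pseudogenes rose with vitamin D. How ChIP reads shared by close copies were placed is not stated in the sources used here, so these may not be separate regions.

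The untreated VDR regions had another layout. Of the 25, 9 lay at KRT6A, 7 at KRT5, 3 at KRT14, 2 each at KRT16, KRT17 and KRT19, and 1 of those at KRT19 also fell within 5 kb before KRT15. Exons and introns held 21 of the 25, or 84%, against 12 of the 23 with vitamin D, or 52.2%, in the same windows. Over all untreated VDR regions the share was 42.4%. That share is not a like background, since the windows were placed around genes. Intergenic regions made up 35.2% of all untreated VDR regions and 0 of the 25. With vitamin D, 20 of the 25 were no longer met by a VDR region, or 80%, against 10.7% of all untreated VDR regions. These 20 lay at KRT6A, KRT5, KRT14, KRT16 and KRT17, and the RNA of these 5 genes was the most abundant of all keratins. Among genes other than keratins, a VDR region in the body that vitamin D libraries did not show was found in 5 of 31 genes at 1000 RPKM or more (ANXA1, CSTA, DSP, EEF1A1 and GJB2), or 16.1%, in 3.52% of 426 genes from 100 to 1000 RPKM and in 0.114% of 12248 genes under 1 RPKM. Among keratins it was 5 of 7 at 1000 RPKM or more and none below. Another untreated VDR region, 7.39-fold at chromosome 12, 52880311 to 52880816, lay just beyond the end of the KRT6A body, though the lists assign it to KRT6C, and vitamin D did not show it either. Enrichment at the 20 regions lay between 3.90-fold and 7.39-fold, and the sources used here do not tell whether a control library was used.

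**Figure D5:**
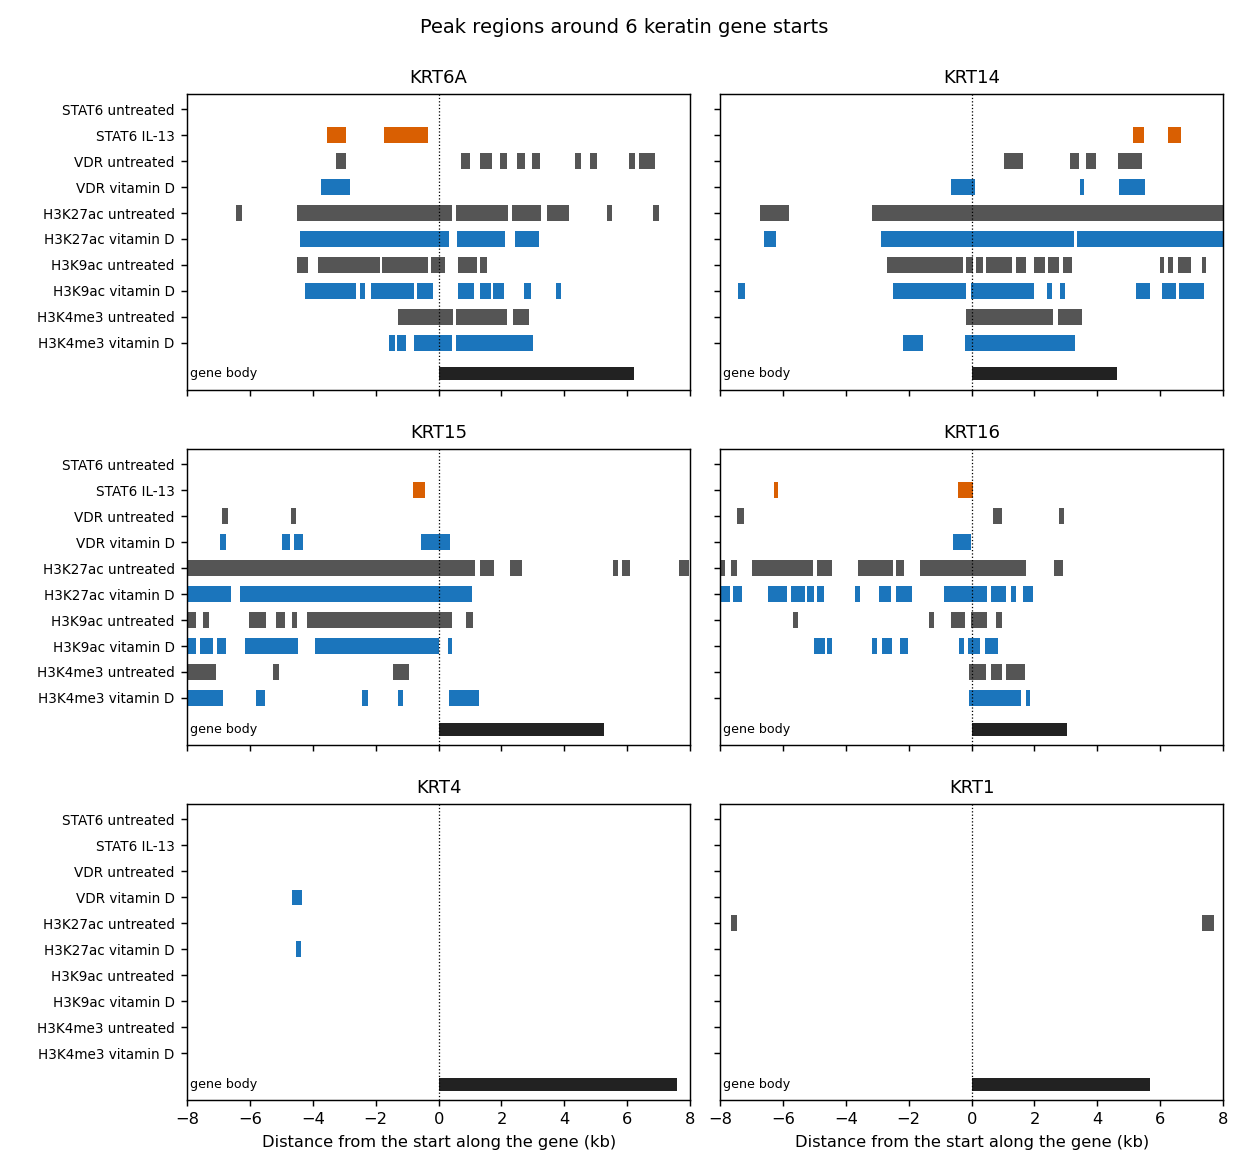
Peak regions within 8 kb of 6 keratin starts, drawn to scale as distance along the gene in kb, with the start at 0, the gene body in black and 10 libraries as rows (grey without treatment, orange with IL-13, blue with vitamin D). KRT6A shows a STAT6 and a VDR region together about 3.2 to 3.3 kb before the start and a row of untreated VDR regions over the body, KRT4 shows only the VDR and H3K27ac regions 4.5 kb before its start, and KRT1 shows none over its body or the 5 kb before.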

How the data were processed

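RNA was measured in 12 samples and chromatin in 16 libraries of the same cell line, 28 samples in all. The authors deposited 4 RNA tables with 1 RPKM value per group, a log2 fold change, a p-value and an adjusted p-value per gene, per the file headers, and no table used here holds values per sample. The submitters' processing notes name Trim Galore, STAR, SAMtools, Bowtie, MACS2, GRCh37 and hg19; the sources used here do not give their roles, versions or settings. An adjusted p listed as 1 was read as no test, and the threshold was 0.05. One table is named as a comparison with IL-13 alone, but its column headers name vitamin D and both treatments, and its log2 fold changes follow the RPKM ratio of both treatments to vitamin D (correlation across genes 0.995) and not that to IL-13 (-0.033), so it was read as both treatments against vitamin D.

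Both treatments against IL-13, and the difference between IL-13 effects, were derived from the deposited values, with standard errors from each fold change and p, a normal (z) test and Benjamini-Hochberg adjustment over 14734 genes. Where p is listed as 0, as for KRT4 with vitamin D, the standard error taken for that deposited fold change is an upper bound. The standard error derived from it for both treatments against IL-13 is not a strict bound, because that variance is subtracted there. The KRT4 difference between IL-13 effects uses no p listed as 0. Left out were 11 genes, no keratin among them, whose log2 values did not add up across tables to within 0.5. The procedure was also run on simulated normal values whose p-values came from the same z formula. Its standard errors are then right by design, so that run does not test how well they hold for the deposited p-values.

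The ChIP-seq lists hold, per the file headers, a pileup signal, a fold enrichment ratio and −log10 p and q values for each summit, as the authors' peak caller gave them, for 1 library each. Summits with shared borders were merged, mitochondrial regions were left out, and overlap needed 1 base. A region belonged to a gene if it overlapped its body or the 5 kb before its start. Keratin genes at 1 RPKM or more in a group, any keratin called, regions in these windows, the strongest region farther out per library, and partner genes changed at least 2-fold were named. Members and gene lists were chosen with earlier results of these data known. Python 3.11.15, numpy 2.4.6, pandas 2.3.3 and scipy 1.17.1 were used. The alternatives tried were other thresholds, filters, pseudocounts, standard errors, peak cutoffs and windows.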

Additional observations from a re-analysis of the deposited data

Results flagged for a closer look

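For 4 keratin members the effect of IL-13 differed between cells with and without vitamin D, by the z test of the difference with Benjamini-Hochberg adjustment over 14734 genes. The effect of IL-13 on KRT10 was higher by 0.60 (log2) with vitamin D than without, from a level that vitamin D alone had already lowered from 103 to 41.4 RPKM. For KRT4 the difference was 0.27, which did not pass once standard errors were multiplied by 1.5 (adjusted p = 0.314, from the authors' deposited tables). For the pseudogenes KRT16P2 and KRT16P3 it was -1.10 and -1.12, and each was higher with vitamin D alone than with both treatments. The separate values of the pseudogenes and of KRT16 are uncertain, since the sources used here do not tell how reads shared by close copies were counted.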

How the results depend on the processing

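No paired analysis was possible because the RNA tables hold 1 value per group and each ChIP-seq condition has 1 library; for the same reason no replicate could be left out. Of the counts of keratins called and of regions, 38 stayed within 1.5 times the reported value under an alternative and 18 did not. Requiring a 2-fold change left 3 keratins called with IL-13, 5 with vitamin D, 8 with both and 2 for IL-13 added to vitamin D, in place of 23, 20, 23 and 27. These counts rest on the deposited fold changes. Those of KRT37 with IL-13 and of KRT40 with vitamin D were smaller in size than the RPKM ratios. For both treatments against IL-13, standard errors multiplied by 1.5 left 11 of 19. A −log10 q of at least 10 left 2 of 5 STAT6 regions, 2 of 25 untreated VDR regions, 7 of 23 VDR regions with vitamin D, 6 of the 18 absent without it, and 0 of the 3 shared by STAT6 and VDR. A window of 20 kb before the start gave 14 STAT6 regions, 40 VDR regions with vitamin D, 31 absent without it and 6 shared. The deposited assignment to genes, an alternative chosen after seeing the data, gave 19, 46, 36 and 6. Of the values for single genes, 48 stayed within the limit set and 3 moved: KRT10 with vitamin D to -1.31 at a pseudocount of 0.1, and KRT1 to -2.53 with both and -1.02 for IL-13 added to vitamin D at a pseudocount of 1. The KRT4 difference lost its call with larger standard errors. None of these values reversed. The sources used here do not give the depth of each library, so the absence of a peak region may reflect depth.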
